A study of Homo sapiens with 6 samples.

Results

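The aryl hydrocarbon receptor (AHR), its dimerization partner ARNT, the repressors AHRR and TIPARP and the CYP1 enzymes CYP1A1, CYP1A2 and CYP1B1 were examined in SZ95 sebocytes exposed to PM2.5. These 7 genes were taken by their symbols from a table of 27685 genes, and all 7 were found, each in a single row. SZ95 is a human sebaceous gland cell line immortalized with a viral large T antigen, so every library came from the same line. The 3 control samples received 20% ethanol, the vehicle, and the 3 PM2.5 samples received airborne particulate matter at 100 μg/mL that had been suspended in 20% ethanol, both for 24 h in medium that held antibiotics and no phenol red. The labels give the genotype of all 6 as WT. Polyadenylated RNA was sequenced, and whether the replicates were separate cultures is not given, so the p-values reflect only the variation among these 6 libraries, which may be technical.

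AHR is a ligand-activated transcription factor that waits in the cytoplasm in a complex with HSP90. Polycyclic aromatic hydrocarbons, dioxins and tryptophan-derived indoles bind it, after which it enters the nucleus, pairs with ARNT and binds xenobiotic response elements, whose core reads GCGTG. AHRR, TIPARP and the CYP1 genes are textbook targets of this pair. AHRR competes with AHR for ARNT, TIPARP is a mono-ADP-ribosyltransferase that modifies AHR and dampens its activity, and the CYP1 enzymes oxidize the ligands, so all of them limit the signal that induced them. In skin, AHR is known for its responses to smoke, dioxins and sunlight, and dioxin exposure in people leads to chloracne, in which sebaceous glands are lost.

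The promoters of 6 of the 7 genes were found in the RefSeq table (GRCh38.p14), with 9 start sites among them, and the 250 bases before each start were searched on both strands for GCGTG, for its longer form TNGCGTG, which contains it, and for ACGTG, the core bound by the related HIF-ARNT pair. No CYP1B1 entry was matched. The lines that follow give 4 promoters, 5′ to 3′ on the strand of the gene and ending at the base before the start, to set the enzyme with the most counts gained, its neighbour at the same locus and both repressors side by side. Capitals mark GCGTG, or CACGC where the match is on the opposite strand. CYP1A1 lies at chr15:74725529-74725778 on the minus strand, CYP1A2 at chr15:74748595-74748844 on the plus strand, the first AHRR start at chr5:321464-321713 on the plus strand and the first TIPARP start at chr3:156674340-156674589 on the plus strand.
CYP1A1: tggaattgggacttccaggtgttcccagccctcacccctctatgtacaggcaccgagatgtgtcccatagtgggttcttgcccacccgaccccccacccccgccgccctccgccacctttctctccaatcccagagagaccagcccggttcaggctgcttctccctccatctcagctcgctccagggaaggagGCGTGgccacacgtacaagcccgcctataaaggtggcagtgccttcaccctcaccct
CYP1A2: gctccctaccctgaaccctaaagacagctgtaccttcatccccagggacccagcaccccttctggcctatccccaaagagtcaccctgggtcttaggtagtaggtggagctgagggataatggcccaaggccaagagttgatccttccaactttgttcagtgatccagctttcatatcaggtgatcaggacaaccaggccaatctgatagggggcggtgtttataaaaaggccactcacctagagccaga
AHRR: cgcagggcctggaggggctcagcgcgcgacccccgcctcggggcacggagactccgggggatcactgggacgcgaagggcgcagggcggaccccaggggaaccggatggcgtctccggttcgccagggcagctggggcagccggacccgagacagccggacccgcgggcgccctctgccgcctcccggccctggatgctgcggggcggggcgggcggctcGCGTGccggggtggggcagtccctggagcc
TIPARP: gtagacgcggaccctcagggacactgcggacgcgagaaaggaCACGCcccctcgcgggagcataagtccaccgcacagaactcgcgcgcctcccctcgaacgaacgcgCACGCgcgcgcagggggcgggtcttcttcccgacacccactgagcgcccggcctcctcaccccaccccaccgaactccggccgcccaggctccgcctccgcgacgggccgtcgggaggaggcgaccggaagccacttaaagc
The CYP1A1 window held 1 GCGTG, 57 to 53 bases before the start, and 1 ACGTG on the opposite strand at 48 to 44. The AHRR window held 1 GCGTG, at 30 to 26, which was also a TNGCGTG at 32 to 26, and its second start had 2 further GCGTG. TIPARP held 2 GCGTG on the opposite strand, at 208 to 204 and 142 to 138, and none before its other 2 starts. The CYP1A2 window had 0 matches to any of these letters. AHR and ARNT had 0 GCGTG, and AHR carried ACGTG on both strands at 165 to 160. Of all 35116 promoters in the table, 32.2% held GCGTG, 4.52% TNGCGTG and 18.5% ACGTG, so a single GCGTG is common. These matches describe letters within a short window, and binding was not measured.

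Control libraries held 62537562, 63938558 and 70616698 counts and PM2.5 libraries 59426425, 71080000 and 56460553. Levels are given as CPM, counts scaled to a common library size with TMM (trimmed mean of M-values) factors, and 16049 genes passed the filter on low counts. A gene was called at an edgeR quasi-likelihood Benjamini-Hochberg adjusted p under 0.05, and positive log2 fold changes mean higher with PM2.5. The median log2 fold change of all tested genes was 0.0042. Of the sebocyte markers KRT7, MUC1, PPARG, PRDM1, PLIN2, FASN, SCD, FADS2, ELOVL3, AWAT1, AWAT2, MC5R and SOAT1, 10 of 13 reached 1 CPM in every library, AWAT1 and AWAT2 were at 0 in all 6 and MC5R had at most 3 counts. Summed sebocyte markers ran from 2756 to 2855 CPM in control and from 3405 to 3852 CPM with PM2.5, with members in both directions. The lipid enzymes SCD (482 to 1191 CPM), FASN (404 to 807 CPM), FADS2 (259 to 424 CPM) and ELOVL3 (2.62 to 3.72 CPM) were called higher. PPARG (15.2 to 21.4 CPM) was also called higher. KRT7 (1411 to 1030 CPM), MUC1 (115 to 104 CPM) and PRDM1 (24.1 to 20.6 CPM) were called lower, and PLIN2 and SOAT1 were not called. The summed keratinocyte markers, of which 5 of 6 reached 1 CPM in every library, ran from 360 to 390 CPM in control and from 296 to 335 CPM with PM2.5. Among them IVL (111 to 39.5 CPM), KRT10 (22.4 to 17.5 CPM) and KRT14 (4.26 to 1.51 CPM) were called lower. TP63 (3.59 to 5.02 CPM) was called higher, and KRT5 (233 to 252 CPM), the most abundant, was not called. Summed leukocyte markers ran from 64.4 to 70.4 CPM in control and from 105 to 116 CPM with PM2.5, most of it CD68, while CD3E was at 0 and PTPRC had at most 4 counts. Summed endothelial markers ran from 183 to 207 CPM in control and from 80.3 to 91.3 CPM with PM2.5, most of it CDH5. The summed fibroblast markers, 2 of 6 at 1 CPM or more throughout, ran from 44.1 to 49.2 CPM in control and from 52.3 to 56.6 CPM with PM2.5. Most of it was COL1A1 (43.6 to 52.6 CPM), called higher, while LUM (3.37 to 1.43 CPM) was called lower. The summed melanocyte markers, nearly all of it PMEL, ran from 12.6 to 13.7 CPM in control and from 12.3 to 15.9 CPM with PM2.5, with MLANA and TYR at 0. The part of these marker levels in the results was not tested, and in bulk RNA a change in the share of cells that use a gene and a change in RNA per cell cannot be told apart.

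Of the 7 genes, 6 had a count in every library. Among these 6, PM2.5-treated cells had 4 called higher, AHRR, TIPARP, CYP1A1 and CYP1B1, 1 called lower, AHR, and 1 not called, ARNT. Over all tested genes, 43.6% were called in either direction, 21.7% higher and 22.0% lower. A log2 fold change of at least 1 together with a call was reached by 3 of the 6, AHRR, CYP1A1 and CYP1B1, against 3.01% of all tested genes. Control and PM2.5 libraries did not overlap for 5 of the 6, against 56.3% of all tested genes. The 7 genes were chosen with earlier results of these data known, so these shares describe the set and test nothing. CYP1A2 passed the filter only through its PM2.5 libraries, so it had to differ and is described apart by its counts. The plot of levels by library shows the 7 genes together.

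**Figure D1:**
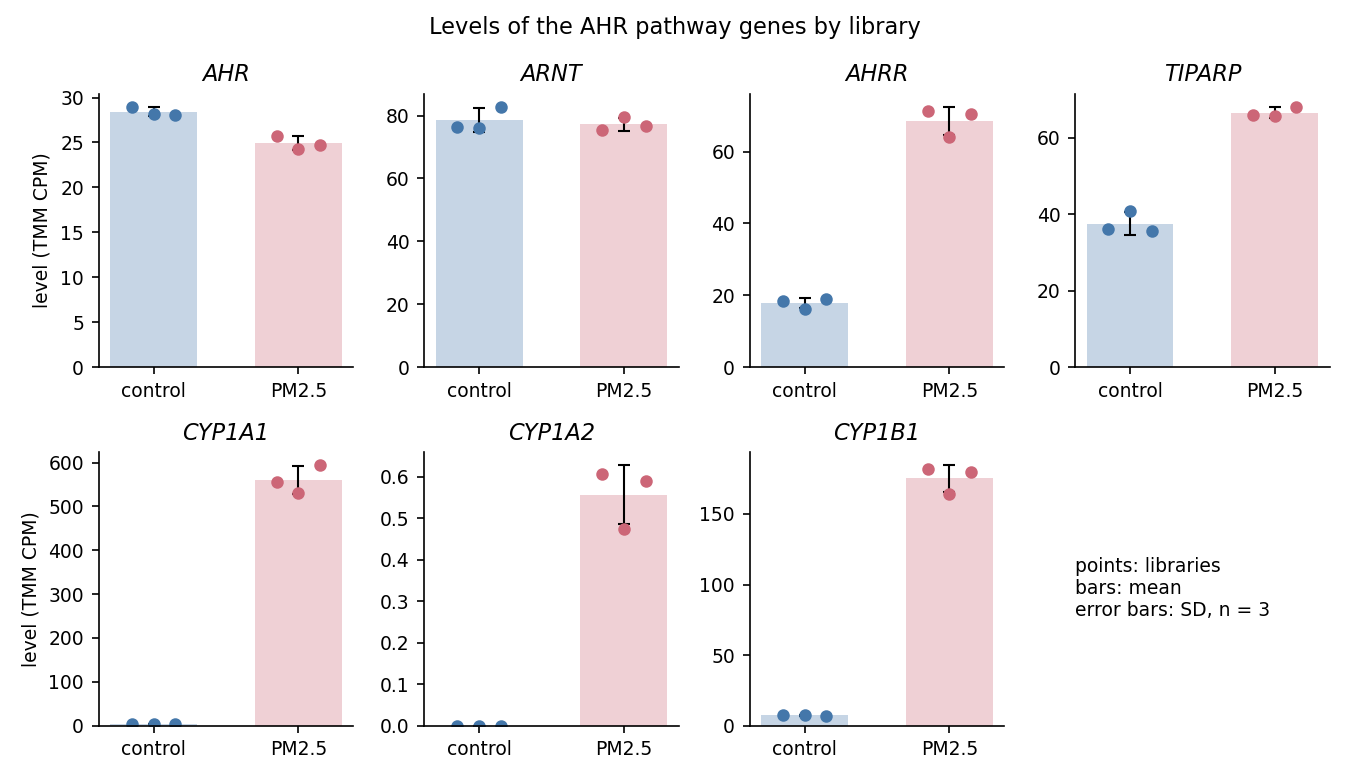
Levels in TMM CPM of the 7 genes in the 3 control and 3 PM2.5 libraries, with points for libraries, bars for means and error bars for the SD (n = 3), each panel on its own linear axis from 0. CYP1A1 goes from 3.56 to 560.2 CPM and CYP1B1 from 7.38 to 175 CPM, while AHR and ARNT stay within a narrow range.

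The receptor itself was slightly lower with PM2.5. AHR (Gene ID 196) stood at 29.0, 28.2 and 28.0 CPM in control and at 25.8, 24.2 and 24.7 CPM with PM2.5. Every PM2.5 library was below every control library, by a margin of a few CPM. The means were 28.4 ± 0.510 and 24.9 ± 0.778 CPM (SD, n = 3). As a log2 fold change this is -0.19 (SE 0.053, edgeR adjusted p = 0.02). Its 95% interval, -0.29 to -0.088, uses a normal quantile and is too narrow for n = 3. The spread among control libraries was 1.79% of their mean, below the 2.29% to 2.38% that counting alone gives for a single library of 1766 to 1908 AHR counts. The call was lost without control replicate 1 (edgeR adjusted p = 0.0691), without PM2.5 replicate 2 (0.0856), without PM2.5 replicate 3 (0.0633) and with library size as the only scaling (0.117), over a range of 0.0164 to 0.117 in 15 alternatives. In GENCODE, 41.2% of the 50-base windows of the AHR transcript also occur in other genes, mostly in AC019117.2 on the same strand, which is no row of the count table.

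ARNT (Gene ID 405), which also serves as the partner of the hypoxia factors, was the only one of the 7 genes whose groups overlapped. It stood at 76.4, 76.1 and 82.9 CPM in control and at 75.5, 79.6 and 76.5 CPM with PM2.5. The means were 78.5 ± 3.80 and 77.2 ± 2.13 CPM (SD, n = 3), which is -0.02 as a log2 fold change (SE 0.052, edgeR adjusted p = 0.74). The 95% interval, from a normal quantile and so too narrow, ran from -0.13 to 0.078 on the log2 scale. ARNT was called in 0 of 15 alternatives, DESeq2 and limma-voom among them, with an unadjusted edgeR p of 0.659 in the test reported. Its sign depended on the scaling and on single libraries, so no direction is given.

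Both repressors rose. AHRR (Gene ID 57491), the repressor that competes for ARNT, stood at 18.5, 16.1 and 19.0 CPM in control and at 71.2, 64.1 and 70.6 CPM with PM2.5. The lowest treated library was over 3 times the highest control. The means went from 17.9 ± 1.51 to 68.6 ± 3.93 CPM (SD, n = 3), which is 1.94 as a log2 fold change (SE 0.077, edgeR adjusted p = 1.03e-05), or 3.84-fold, and AHRR stood at rank 94 of 16049 genes by log2 fold change. AHRR overlaps PDCD6 on the same strand, with 3.49% of its 50-base windows in both genes, and PDCD6, a calcium-binding protein, went the other way, from 158 ± 8.49 to 132 ± 2.85 CPM (SD, n = 3; log2 fold change -0.26, SE 0.051, edgeR adjusted p = 0.00483).

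TIPARP (Gene ID 25976), the ADP-ribosylating repressor, stood at 36.2, 40.9 and 35.5 CPM in control and at 65.9, 65.8 and 68.2 CPM with PM2.5. The groups did not overlap, and the treated libraries lay closer together than the controls. The means went from 37.5 ± 2.96 to 66.6 ± 1.38 CPM (SD, n = 3), which is 0.83 as a log2 fold change (SE 0.064, edgeR adjusted p = 9.84e-05), or 1.78-fold, at rank 850. Both AHRR and TIPARP were called in all 15 alternatives, with log2 fold changes of 1.87 to 2.02 and 0.79 to 0.91.

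The CYP1 enzymes showed the widest responses of the set. CYP1A1 (Gene ID 1543), which oxidizes polycyclic aromatic hydrocarbons and is the classical readout of AHR activity, had 194, 197 and 295 counts in the control libraries and 33876, 39136 and 34268 in the PM2.5 libraries. In CPM these were 3.19, 3.15 and 4.34 against 555, 531 and 594. Control replicate 3 was the highest of its group by about a CPM, and the relative spread fell from 19.0% of the mean in control to 5.71% with PM2.5. CYP1A1 had a log2 fold change of 7.29 (95% interval 7.04 to 7.55, SE 0.13, edgeR adjusted p = 7.16e-08), rank 3 of all tested genes, and CYP1A1 transcripts took 0.000308% to 0.000418% of a control library and 0.0551% to 0.0607% of a PM2.5 library.

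CYP1B1 (Gene ID 1545) is the extrahepatic CYP1 enzyme that also oxidizes estradiol and retinoids. It stood at 7.72, 7.38 and 7.04 CPM in control and at 182, 164 and 180 CPM with PM2.5. Its control libraries were tighter than those of CYP1A1, and the relative spread was 4.59% in control and 5.40% with PM2.5. CYP1B1 rose 23.7-fold (log2 fold change 4.57, SE 0.067, edgeR adjusted p = 3.02e-08) and stood at rank 8. In GENCODE, 10.2% of the 50-base windows of CYP1B1 also occur, on the other strand, in the antisense gene CYP1B1-AS1. CYP1B1-AS1 had 10, 8 and 10 counts in control and 43, 50 and 37 with PM2.5. It passed the filter on low counts only through its PM2.5 libraries, so it is described by its counts and its test is not given. The antisense counts equalled 1.73% to 2.13% of the CYP1B1 counts in control and 0.357% to 0.413% with PM2.5, and whether counting used the strand is not given in the sources used here, so reads from the shared stretch cannot be told apart.

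CYP1A2 (Gene ID 1544), the liver enzyme that shares a locus with CYP1A1, had 0 counts in each control library and 37, 35 and 34 with PM2.5. These equalled 0.606, 0.475 and 0.590 CPM, so the 3 treated libraries were alike and far below those of any other gene of the set. The 106 counts of the PM2.5 group have an exact 95% Poisson interval of 86.8 to 128, which covers counting error only. Pooled, this was 0.551 CPM, which is 35.2-fold a floor of 3 counts over the control group, 0.0157 CPM. That ratio uses the 106 counts and not the low end of their interval, so it is no strict lower bound. The starts of CYP1A1 and CYP1A2 lie 23317 bases apart on chromosome 15 in GRCh38.p14, in opposite directions. CYP1A2 counts were 0.109%, 0.0894% and 0.0992% of the CYP1A1 counts in the same 3 libraries. At the pooled 0.0988%, the 686 CYP1A1 counts of the control group would go with 0.678 CYP1A2 counts, so at this depth 0 counts in control do not show that the ratio of both genes differed between groups. CYP1A1 and CYP1A2 transcripts share 0 windows of 50 bases, and the defining liver markers ALB, APOA1, TTR and F2 had at most 4 counts in any library.

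Compared per transcript length, the order of the genes differed between control and PM2.5 cells, and the control order was the same as in plain CPM. In control cells ARNT led with 16.1 ± 0.778 CPM per kilobase, followed by TIPARP with 8.98 ± 0.708, AHR with 4.53 ± 0.0812 and AHRR with 3.16 ± 0.267 (SD, n = 3). CYP1B1 and CYP1A1 came next with 1.41 ± 0.0646 and 1.32 ± 0.252 CPM per kilobase (SD, n = 3), and their libraries overlapped, at 1.34 to 1.47 and 1.17 to 1.61. So the inducible enzymes were the lowest detected genes of the set at baseline. With PM2.5, CYP1A1 led with 209 ± 11.9 CPM per kilobase and CYP1B1 came second with 33.4 ± 1.80 (SD, n = 3). TIPARP and ARNT, with 15.9 ± 0.330 and 15.8 ± 0.436 CPM per kilobase, overlapped, and AHRR with 12.1 ± 0.694 stood above AHR with 3.97 ± 0.124 (SD, n = 3). CYP1A2 was last, with 0.204 ± 0.0262 CPM per kilobase (SD, n = 3). Other neighbours in either order did not overlap.

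**Figure D2:**
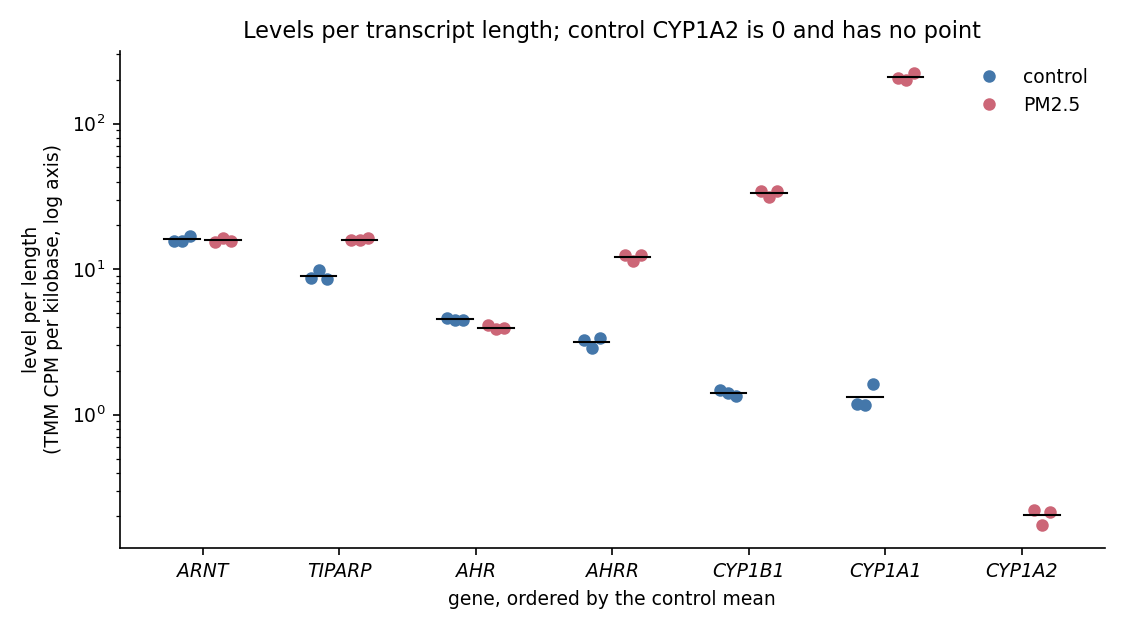
Levels per transcript length, in TMM CPM per kilobase on a log axis, of the 7 genes in each library, with short lines for the group means (n = 3). CYP1A1 moves from 1.32 to 209 CPM per kilobase and from sixth place to first, AHRR passes AHR, and CYP1A2 has no point in control because its counts are 0.

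Ratios of counts within a library, which do not depend on scaling, were used to ask whether the genes moved by different amounts. For 5 pairs, an exact two-sided permutation test of 3 against 3 libraries cannot go below p = 0.1, so none could pass the threshold. The CYP1A1 to CYP1B1 ratio was 0.413, 0.426 and 0.616 in control and 3.06, 3.23 and 3.31 with PM2.5, a 6.71-fold difference (log2 difference 2.75, exact permutation p = 0.1, adjusted over the pairs 0.125). Thus CYP1B1 had more counts than CYP1A1 in every control library and fewer in every PM2.5 library. The AHRR to TIPARP ratio went from 0.511, 0.394 and 0.534 to 1.08, 0.974 and 1.03 (log2 difference 1.11, exact permutation p = 0.1, adjusted 0.125), so the repressors had similar counts with PM2.5 only. The AHRR to AHR ratio went from 0.638, 0.572 and 0.677 to 2.76, 2.64 and 2.85 (log2 difference 2.13, exact permutation p = 0.1, adjusted 0.125). Repressor counts were below receptor counts in all control libraries and above them in all PM2.5 libraries. The CYP1A1 to AHRR ratio went from 0.172, 0.195 and 0.229 to 7.80, 8.29 and 8.42 (log2 difference 5.37, exact permutation p = 0.1, adjusted 0.125). The AHR to ARNT ratio was 0.380, 0.371 and 0.338 in control and 0.341, 0.305 and 0.323 with PM2.5, with overlapping groups (log2 difference -0.17, exact permutation p = 0.2, adjusted 0.2).

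**Figure D3:**
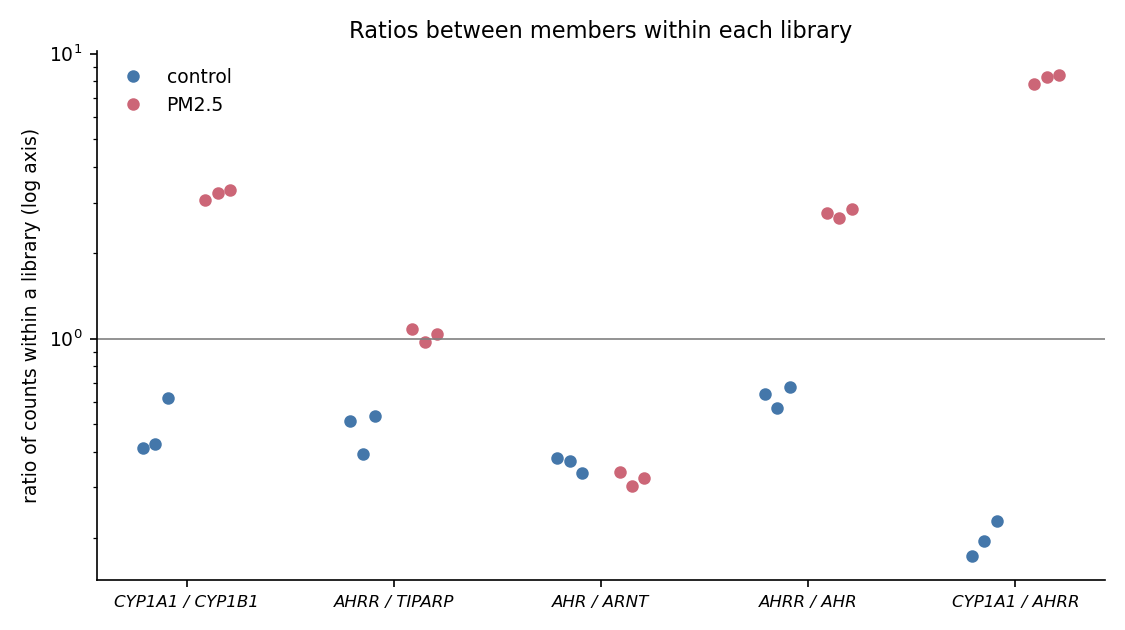
Ratio of the counts of 2 genes within each library, on a log axis with a line at 1, for 5 pairs in control and PM2.5 libraries. In 4 pairs the PM2.5 libraries lie above all control libraries, and for AHR to ARNT, 0.338 to 0.380 in control and 0.305 to 0.341 with PM2.5, they overlap.

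The CYP1 genes came to dominate the cytochrome P450 transcripts. The table held 67 P450 genes, and CYP1A1, CYP1A2 and CYP1B1 took 3.33%, 3.10% and 3.40% of their counts in control and 70.0%, 68.3% and 70.8% with PM2.5. The summed CYP1 level went from 10.9, 10.5 and 11.4 CPM to 737, 696 and 775 CPM. The other P450 genes summed to 316, 329 and 323 CPM in control and to 316, 323 and 319 CPM with PM2.5, and these ranges overlap.

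The genes most like each responder were sought outside the 7, among 13986 genes with a mean of at least 1 CPM in the higher group, by the distance between their profiles over the 6 libraries, each on the log2 (CPM + 0.5) scale less its control mean. AHRR was closest to MT1E, a metallothionein, at a distance of 0.215, to ACOXL, an acyl-CoA oxidase-like gene, at 0.321 and to LINC00886, a noncoding RNA, at 0.381. Their log2 fold changes were 1.88, 2.05 and 1.97. For both CYP1A1 and CYP1B1 the nearest of the genes searched were MINOS1-NBL1, a readthrough locus, UGT1A6, a glucuronosyltransferase, and C1GALT1C1, a glycosylation chaperone. These lay at distances of 7.71 to 7.98 from CYP1A1 and 3.11 to 3.39 from CYP1B1, with log2 fold changes of 3.03, 2.62 and 2.75. For CYP1A2 the offset of 0.5 CPM is about as large as its level, so its nearest genes, ADAP1, FASN and FTL at 0.121 to 0.157, match a compressed change.

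Beyond the 7 genes, other known AHR targets were mixed. Of 28 in the table, 23 were tested, and 10 were higher, 5 lower and 8 not called, with a median log2 fold change of 0.48 against 0.0042 for all tested genes, and 65.2% were called against 43.6%. The number lower was 3 with upper-quartile scaling and with library size only. It was also 3 without control replicate 1, PM2.5 replicate 1 or PM2.5 replicate 2. UGT1A6 rose from 9.32 to 57.5 CPM (log2 fold change 2.62), and UGT1A3 and UGT1A1, which share last exons with it so that reads may be misassigned, rose by 1.91 and 1.40 on the log2 scale. ALDH3A1, an aldehyde dehydrogenase, stood at 1.41, 0.974 and 1.76 CPM in control and at 4.57, 4.79 and 4.67 CPM with PM2.5 (log2 fold change 1.75, SE 0.17, edgeR adjusted p = 0.000244). ABCG2, a drug efflux pump, rose from 17.6, 15.9 and 13.3 to 55.0, 42.1 and 48.8 CPM (log2 fold change 1.64, SE 0.13, edgeR adjusted p = 9.64e-05). SLC7A5, a large amino acid transporter and the most abundant gene of the list, rose by 0.98 on the log2 scale. Against these, SERPINB2, a plasminogen activator inhibitor, fell by 1.07 and IDO1, the enzyme that starts kynurenine synthesis, fell by 1.08 on the log2 scale, both known as AHR-induced genes elsewhere. NFE2L1, a stress transcription factor, was also called lower (log2 fold change -0.16, edgeR adjusted p = 0.0327) and lost that call in 6 of 15 alternatives (adjusted p up to 0.199).

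Of the cytoplasmic AHR complex and the genes for its turnover, 7 genes are described here, of which 2 were lower and 5 not called, with a median of -0.06, and 28.6% were called against 43.6% of all tested genes. With library size only, 2 were called higher and 1 lower. PTGES3, the p23 co-chaperone of this complex, fell from 177, 177 and 180 to 153, 154 and 152 CPM (log2 fold change -0.22, SE 0.039, edgeR adjusted p = 0.00279). The chaperones HSP90AA1 and HSP90AB1 were not called (log2 fold changes -0.06 and -0.07), and TBL3, a subunit of the ubiquitin ligase that AHR forms with CUL4B, was called only narrowly (-0.13, edgeR adjusted p = 0.0481) and in 3 of 15 alternatives (adjusted p up to 0.363).

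Among 15 coregulators, 1 was higher, 3 lower and 11 not called, with a median of -0.05, and 26.7% were called against 43.6% of all tested genes. The number higher was 2 with upper-quartile scaling and with DESeq2, and 4 with library size only and with the replicate block. The number lower was 1 with upper-quartile scaling, with library size only and without PM2.5 replicate 1 or 2. NRIP1, a corepressor, fell by 0.55 (edgeR adjusted p = 0.00195) and ANKRA2 rose by 0.28 (edgeR adjusted p = 0.0166), both on the log2 scale. EP300 and SP1 fell by 0.14 and 0.13 (edgeR adjusted p = 0.034 for both) and lost the call in 5 and 6 of 15 alternatives (adjusted p up to 0.260 and 0.349), and the abundant deacetylase HDAC1 was not called. Of 14 tested genes listed with the bHLH-PAS family of AHR and ARNT, 4 were higher, 4 lower and 6 not called. So 57.1% were called against 43.6% of all tested genes. PER1, PER2 and PER3, PAS proteins that lack the basic helix-loop-helix part, are counted in this list and were all called. Lower calls numbered 2 with upper-quartile scaling, with library size only and without control replicate 1, PM2.5 replicate 1 or PM2.5 replicate 3. ARNT2, the paralog of ARNT, fell from 16.8, 15.4 and 14.4 to 11.2, 8.51 and 11.7 CPM (log2 fold change -0.57, SE 0.12, edgeR adjusted p = 0.00715). Of the hypoxia factors, EPAS1 fell by 0.34 and HIF1A rose by 0.36 on the log2 scale. Of the clock genes, PER1 and PER3 rose by 0.58 and 0.63 and PER2 fell by 0.22, and the coactivator NCOA1 rose by 0.22 on the log2 scale. NCOA3, a coactivator of the same family, fell by 0.16 (edgeR adjusted p = 0.0299) and lost that call in 9 of 15 alternatives (adjusted p up to 0.237).

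Of the 18 tested genes of poly(ADP-ribose) polymerases, the family of TIPARP, and of ADP-ribose hydrolysis, 5 were higher, 2 lower and 11 not called, so 38.9% were called against 43.6% of all tested genes. With upper-quartile scaling, and with library size only, 9 were called higher, and without control replicate 1 this was 3. PARP4 and PARP6 rose by 0.32 and 0.36, PARP12 and ZC3HAV1, both antiviral members, fell by 0.37 and 0.29, and the abundant PARP1 and PARP14 were not called. Of 14 enzymes that work beside CYP1 proteins, 5 were higher and 9 not called, so 35.7% were called against 43.6% of all tested genes, and 8 were higher with library size only. SULT1A1, a phenol sulfotransferase, rose from 20.9, 20.3 and 18.9 to 38.9, 38.1 and 36.4 CPM (log2 fold change 0.91, SE 0.06, edgeR adjusted p = 5.11e-05). CBR1, a carbonyl reductase, the epoxide hydrolase EPHX2 and the quinone reductase NQO1 rose by 0.73, 0.62 and 0.55 on the log2 scale. The glutathione transferase GSTP1, the most abundant of these, was not called, nor was POR, the electron donor of the P450 enzymes (log2 fold change 0.09, edgeR adjusted p = 0.15).

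Enzymes that make or break tryptophan-derived AHR ligands were also surveyed. Of 12 tested, 6 were higher, 1 lower and 5 not called, with a median of 0.31, and 58.3% were called against 43.6% of all tested genes. The kynurenine aminotransferases KYAT1 and KYAT3 rose by 0.49 and 0.31, and HAAO and QPRT, later enzymes of the kynurenine route, rose by 0.54 and 0.37 on the log2 scale. MAOB, a monoamine oxidase, had 7, 9 and 13 counts in control and 22, 18 and 28 with PM2.5. It passed the filter on low counts only through its PM2.5 libraries. Its call among the 6 higher, lost in 6 of 14 alternatives, therefore carries no weight. IDO1 was the only member called lower, and 2 were called lower without control replicate 3 or PM2.5 replicate 3.

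Of 17 tested genes next to the 7 on their chromosomes, 6 were higher, 3 lower and 8 not called, so 52.9% were called against 43.6% of all tested genes. The 6 include CYP1B1-AS1, which passed the filter only through its PM2.5 libraries, so its call carries no weight. No other gene of this list passed a log2 fold change of 1. CLK3, EDC3 and CSK, near CYP1A1 and CYP1A2 on chromosome 15, rose by 0.57, 0.43 and 0.29 on the log2 scale, each less than 1 against 7.29 for CYP1A1. EXOC3, near AHRR, was not called.

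**Figure D4:**
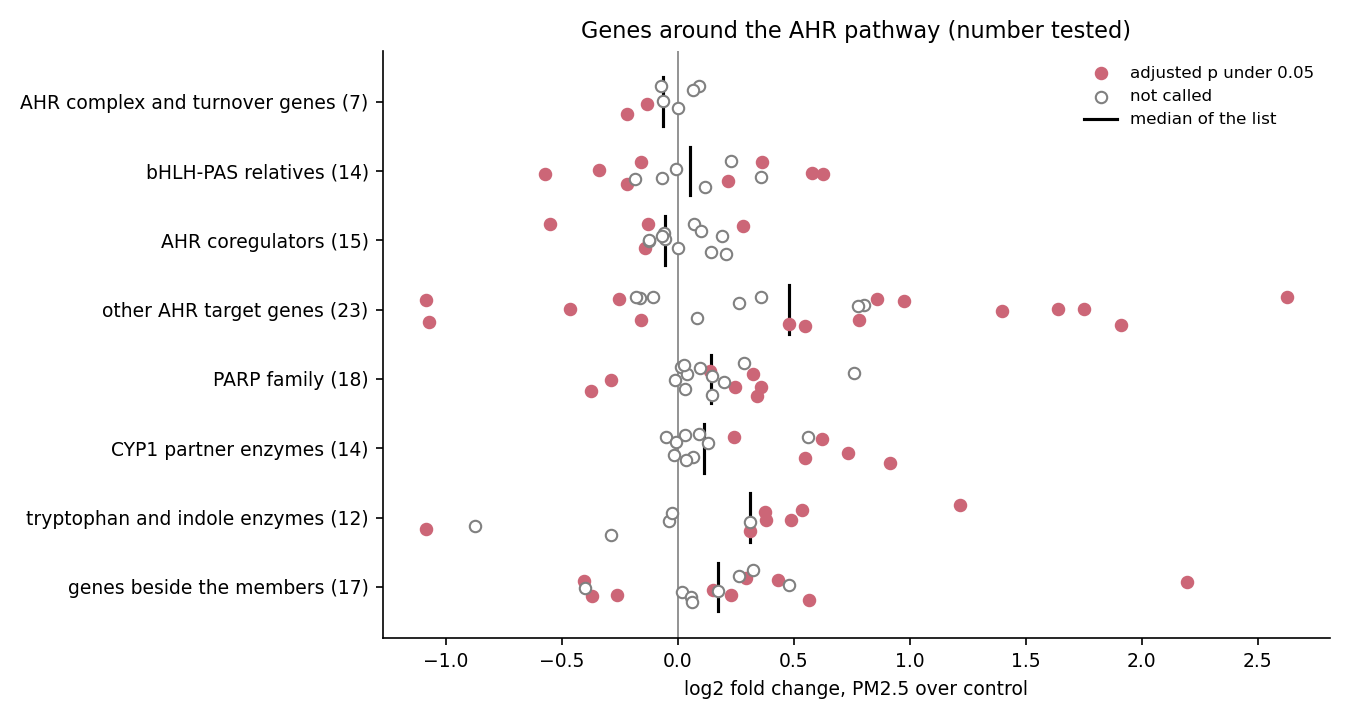
Log2 fold changes of the tested genes in 8 lists around the AHR pathway, with filled points for an edgeR adjusted p under 0.05, open points for genes not called and vertical lines for list medians. The other AHR targets spread widest, from -1.08 for IDO1 to 2.62 for UGT1A6, and the 7 genes of the AHR complex and its turnover lie between -0.22 and 0.09.

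The plot of fold changes by setting gives the range of each gene over the alternatives. CYP1A1 and CYP1B1 were called in all 15, with log2 fold changes of 7.21 to 7.46 and 4.54 to 4.65. CYP1A2 is not drawn, since its fitted fold change depends on the prior count.

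**Figure D5:**
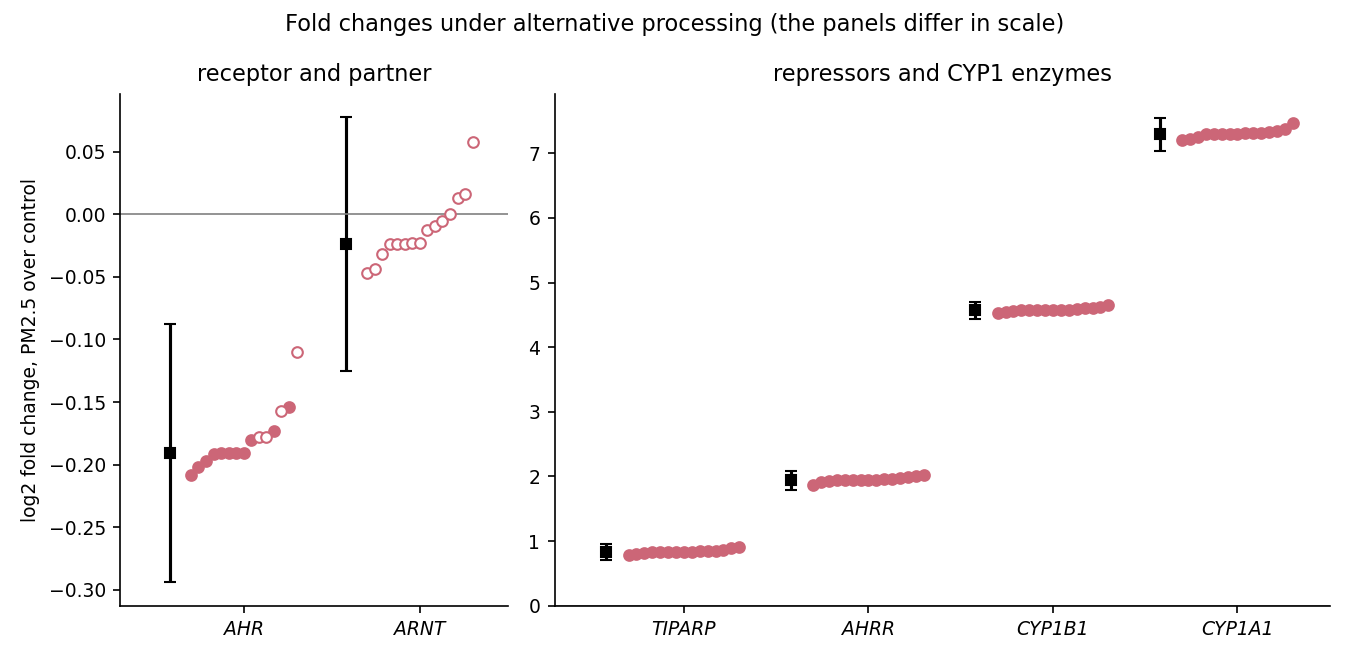
Log2 fold changes with PM2.5 in the test reported (black squares with 95% intervals) and in 15 alternatives sorted by value (circles, filled where the adjusted p was under 0.05), in panels of different scale. AHR stays between -0.21 and -0.11 with 11 of 15 filled, ARNT has values on both sides of 0 and none filled, and TIPARP, AHRR, CYP1B1 and CYP1A1 are filled throughout.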

How the data were processed

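The 3 control and 3 PM2.5 libraries were made with a stranded mRNA kit. The authors deposited a table of whole-number read counts per gene, not normalized, with NCBI Gene IDs. Per the labels, the genome build was hg19 and the tools were HISAT2 2.0.5, StringTie 1.3.3b, Trimmomatic 0.32 and DESeq2. How reads were assigned to genes, and whether strand was used, is not given in the sources used here. A column name with an extra hyphen was read as PM2.5 replicate 1. No row lacked a symbol, and 7274 genes had no count.

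Genes passing filterByExpr (minimum count 10, minimum total 15) were tested in R 4.3.3 with edgeR 4.0.16 (TMM, glmQLFit, glmQLFTest, two-sided, treatment only), and p-values were adjusted over all of them. The code was tested on simulated data. The standard error was the log2 fold change divided by the square root of F. Alternatives used DESeq2 1.42.0, limma 3.58.1, other scalings and filters, a replicate block and the omission of each library. Transcript lengths and shared windows used the longest matching GENCODE transcript, and promoters came from RefSeq (GRCh38.p14, not the build of the files).

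The 7 genes, the lists and the tests were chosen with earlier results of these data known. Named were all 7 genes and, of each list, called genes with an absolute log2 fold change of at least 1, otherwise up to 4 with the smallest adjusted p, and the 2 most abundant. Also named were the 3 genes closest to each gene with an absolute log2 fold change of at least 1. Some genes of the lists are not reported here and were left out of their counts. POR, CUL4B, HIF1A, PER2, CD68, CDH5, COL1A1 and LUM were named after their values were seen. Depth of 56460553 to 71080000 counts per library limits only CYP1A2 and other genes of few counts. Intervals from counts cover counting error only.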

Additional observations from a re-analysis of the deposited data

How the results depend on the processing

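AHRR, TIPARP, CYP1A1 and CYP1B1 kept their direction and call in all 15 alternatives. AHR kept its direction in all 15 and its call in 11. It lost the call with library size as the only scaling (log2 fold change -0.11, edgeR adjusted p = 0.117, 0 of the 7 genes called lower, unadjusted p = 0.0657) and in 3 of the 6 settings that left out a library, over which its log2 fold change ran from -0.21 to -0.16 and the number of the 7 genes called lower from 0 to 1, with 1 lower at an unadjusted p under 0.05 in each of them. DESeq2 and limma-voom each called 1 lower. ARNT, never called, turned positive with upper-quartile scaling (0.013), library size only (0.058), without control replicate 3 (0.016) and without PM2.5 replicate 1 (0.00011), with leave-one-out values from -0.047 to 0.016. The genes of the 8 lists called lower numbered 19, fell to 11 with upper-quartile scaling and 11 with library size only, and ran from 11 to 20 when a library was left out. Library size only moved the median of all genes from 0.0042 to 0.0856 and the share of higher calls from 49.7% to 65.2%, since the PM2.5 libraries have higher TMM factors, and all directions here are relative to the TMM median.

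Of 806 alternative values for 54 other named genes, 750 kept side and direction, 45 lost the call, 2 gained it and 9 changed sign. The sign changes were in genes that were not called. HSP90AA1, HSP90AB1 and HDAC1 became 0.017, 0.010 and 0.015 with library size only. PARP1 became 0.025 with upper-quartile scaling, 0.069 with library size only, 0.0056 with a mean count of at least 50, 0.0020 without control replicate 3 and 0.013 without PM2.5 replicate 3, with leave-one-out values from -0.023 to 0.013. PARP14 became -0.066 without control replicate 3 (leave-one-out -0.066 to 0.080).

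Whether same-numbered libraries were paired is not given. In their deviations from the group means, same-numbered libraries correlated at -0.030, 0.0897 and 0.110 and differently numbered ones at -0.147 to 0.0755. Correlations this small cannot settle whether the samples were paired. With the replicate block, edgeR called 3573 genes higher and 3658 lower against 3476 and 3523, changed no call among the 7 genes and gave AHR a log2 fold change of -0.19 (adjusted p = 0.0239). In the 5 ratios the mean paired differences equal the unpaired ones by construction, so they say nothing of pairing. Their exact sign-flip p was 0.25, the smallest for 3 pairs. CYP1A2 had to differ in any alternative that tested it, so its calls say nothing of stability. It has no value with a mean count of at least 50, and its fitted fold change is not given because it depends on the prior count.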
